A study of Mus musculus with 34 samples.

Results

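Cohesin is the ring complex that extrudes chromatin loops, and SMC1 is one of its subunits. CTCF, a zinc finger protein, halts cohesin on chromatin and thereby sets most of the sites at which cohesin is found. A minority of cohesin sites lack CTCF, and many of those are active enhancers and promoters that carry H3K27ac, the acetylation of histone H3 at lysine 27. The sites described here lack both. They are the SMC1 peaks of unstimulated wild-type cells (WT) that share no base with a WT CTCF peak or a WT H3K27ac peak, and they were therefore selected on 3 measured lists. The rule kept 12272 of 63638 WT SMC1 peaks, or 19.3%. The other WT SMC1 peaks fall into 17085 with H3K27ac but no CTCF, 28573 with CTCF but no H3K27ac, and 5708 with both.

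The peaks come from ChIP-seq of mouse bone marrow-derived dendritic cells (BMDCs) from C57BL/6 mice of 8 weeks, grown for 6 days in GM-CSF, a myeloid growth factor under which marrow progenitors become dendritic cells. In CreER cells only the Cre recombinase that tamoxifen activates was present, and CreER;CTCF fl/fl cells had loxP-flanked Ctcf alleles in addition. Both were given 4-hydroxytamoxifen on the first day, so that Ctcf was deleted in the latter only (KO). The WT CTCF list held 60537 peaks and the KO list still held 20151. Cells were left unstimulated (WT, KO) or received LPS, a bacterial ligand of the receptor TLR4, at 100 ng/ml for 3 h (WTLPS, KOLPS). Lists for SMC1, CTCF, H3K27ac, H3K4me1, H3K4me3, H3K27me3 and the NF-κB subunit p65 exist for all 4 conditions, and lists for STAT5, the signal transducer of the GM-CSF receptor, for WT and KO cells restimulated with GM-CSF for 15 min. CreER was driven from Rosa26 and thus in no single cell type, and cells were selected for CD11c. An H3K4me3 peak lay at the promoters of 10 of 10 dendritic and myeloid marker genes (among them Itgax, Cd74 and Csf1r) in each condition. It lay at 1 of 3 T cell markers (Lck but not Cd3d or Cd3e), 1 of 2 NK cell markers (Eomes but not Ncr1), 1 of 2 red cell markers (Klf1 but not Gata1) and 0 of 3 neutrophil markers.

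Each antibody and condition has 1 deposited list. The study's methods describe biological replicates, but for ChIP-seq they do not state that these were merged. The lists do not show the spread between replicates, and no difference between conditions was tested. Shares are given with 95% Wilson intervals in parentheses, and differences between classes of sites with Newcombe intervals. Changes between lists over the same sites have paired intervals. All of these intervals cover counting error only, treat neighbouring sites as independent, and say nothing of the spread between cultures. A peak is a call against a threshold, and a missing peak does not mean that no protein was there. In a mixed population, occupancy in fewer cells and weaker occupancy in each cell cannot be told apart.

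The 12272 sites were weak SMC1 peaks. Their median fold enrichment, the fragment pileup over local background, was 3.904 (quartiles 3.59 to 4.68), compared with 4.68 at sites with H3K27ac alone, 6.40 at sites with CTCF alone and 7.65 at sites with both. Their median width was 319 bp against 464 bp over all WT SMC1 peaks. When WT SMC1 peaks were ranked by their own −log10 p and divided into 10 equal strength groups, CTCF-free, H3K27ac-free sites made up 46.05% of the weakest group and 0.314% (20 peaks) of the strongest. Because of this, comparisons between classes are also given within strength groups.

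The edge of the rule was not sharp. Of the 12272 sites, 892 lay within 100 bp of a WT H3K27ac peak, and 1583 CTCF-free peaks were left out for sharing under 100 bp with one. The former carried a WTLPS H3K27ac peak in 40.5% of cases and the latter in 45.7%, and both had a median SMC1 fold of 4.22. A WT CTCF peak lay within 100 bp of 28 sites, of which 10.7% had a CTCF peak in WTLPS. In contrast, 52 peaks left out for sharing under 100 bp with a CTCF peak had one in 32.7% of cases. The median distance was 6959 bp to the nearest WT H3K27ac peak and 12963 bp to the nearest WT CTCF peak. At the sites themselves, CTCF stayed rare in the other lists, with a peak at 3.57% of them in WTLPS, at 1.34% in KO and at 0.636% under KOLPS.

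The genome sequence at the summits of some of the sites is shown first. The next lines show, for sites that recur in the results, the SMC1 summit with 50 bases on each side, from RefSeq GRCm38.p6 (mm10), forward strand, with matches to searched motifs in capitals. The first 6 sites carry motifs of myeloid or cytokine-responsive factors and also had a STAT5 or p65 peak or SMC1 peaks in all 4 conditions. They were picked to show motif matches and are not typical, since the most frequent motif lay in 11.2% of windows over all the sites. The last 2 are shown because they carry no searched motif and consist of short repeats.
Ccl2 promoter, chr11:82035394-82035494, STAT motif: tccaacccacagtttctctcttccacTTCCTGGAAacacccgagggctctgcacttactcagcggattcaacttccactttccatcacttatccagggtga
Iqgap2, chr13:95685904-95686004, STAT motif: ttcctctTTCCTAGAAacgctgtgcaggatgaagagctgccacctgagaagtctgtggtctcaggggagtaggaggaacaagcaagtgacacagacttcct
near Stoml1, chr9:58271308-58271408, IRF and PU.1/ETS motifs: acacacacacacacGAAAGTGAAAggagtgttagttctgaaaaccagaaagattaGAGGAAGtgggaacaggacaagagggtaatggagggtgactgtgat
Rere, chr4:150566294-150566394, PU.1/ETS and STAT motifs: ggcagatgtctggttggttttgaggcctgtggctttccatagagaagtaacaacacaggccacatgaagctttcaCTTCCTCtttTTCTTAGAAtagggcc
near Zeb2, chr2:45654759-45654859, PU.1/ETS motif: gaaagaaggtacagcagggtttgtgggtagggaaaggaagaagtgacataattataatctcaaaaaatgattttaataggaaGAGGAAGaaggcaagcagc
near Qpct, chr17:79099998-79100098, AP-1 motif: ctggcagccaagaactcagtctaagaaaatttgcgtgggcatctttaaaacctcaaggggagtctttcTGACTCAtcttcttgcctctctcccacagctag
Pcca, chr14:122568937-122569037, no motif: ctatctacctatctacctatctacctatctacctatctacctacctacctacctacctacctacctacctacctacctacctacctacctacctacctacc
near Cyp26a1, chr19:37803863-37803963, no motif: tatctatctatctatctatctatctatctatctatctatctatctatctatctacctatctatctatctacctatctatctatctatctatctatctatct

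Regarding location, CTCF-free, H3K27ac-free sites lay far from gene starts. A promoter, here any position at most 2.5 kb from where a gene's longest annotated transcript begins, was hit by 1571 of 12272 sites (12.8%, 12.2 to 13.4%), against 20.8% of all WT SMC1 peaks. The difference was -14.2 percentage points from sites with H3K27ac alone (-15.1 to -13.3 points) and -3.504 points from sites with CTCF alone (-4.23 to -2.77 points). Introns held 43.8% of the sites, exons 5.66% and the space outside genes 37.8%. The median distance from summit to the nearest protein-coding start was 41274.5 bp, and 26.7% of sites lay more than 100 kb away, compared with 13.4% of sites with H3K27ac alone and 13.0% of sites with CTCF alone. By chromosome, the sites made up between 14.2% of WT SMC1 peaks on chromosome 11 and 26.3% on chromosome 13, among autosomes, and 14.5% on chromosome X.

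The largest class of chromatin at these sites was H3K4me1 without the other marks. H3K4me1 marks enhancers whether or not they are active, H3K4me3 marks promoters, and H3K27me3 is laid down by Polycomb complexes on silent genes. A WT H3K4me1 peak overlapped 9026 sites (73.5%, 72.8 to 74.3%), against 57.7% of all WT SMC1 peaks. A WT H3K4me3 peak overlapped 967 sites (7.88%, 7.42 to 8.37%), against 18.4% of all WT SMC1 peaks. A WT H3K27me3 peak overlapped 798 sites (6.50%, 6.08 to 6.95%), against 4.84% of all WT SMC1 peaks. H3K4me1 without the other 2 marks was found at 7888 sites (64.3%), none of the 3 marks at 2681 (21.8%), H3K4me1 with H3K4me3 at 635 (5.17%) and H3K4me1 with H3K27me3 at 450 (3.67%).

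**Figure D1:**
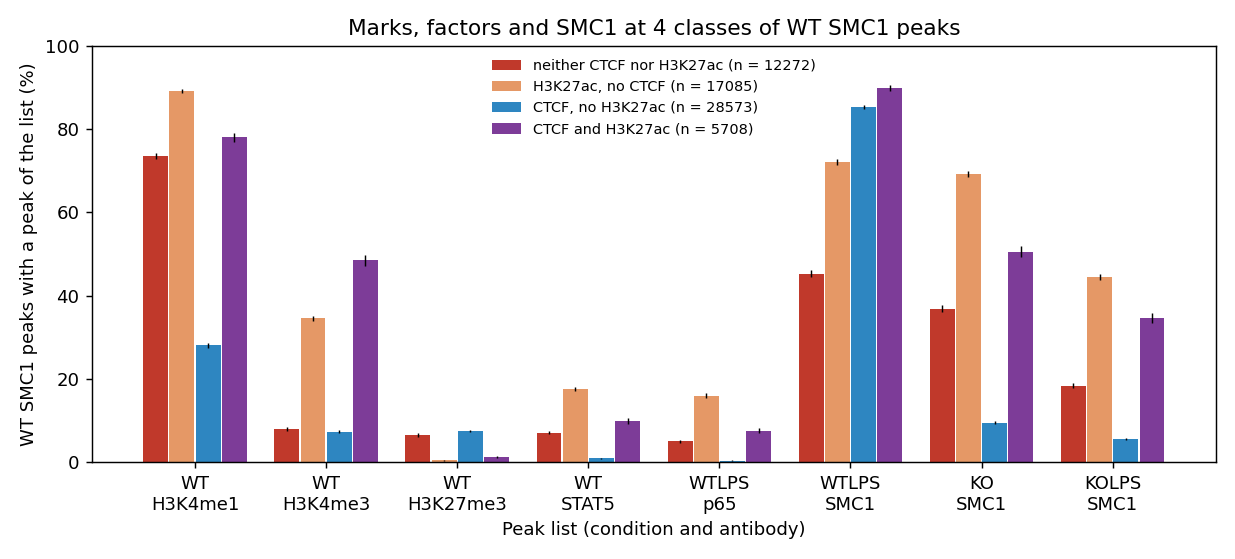
Share of WT SMC1 peaks, in percent, that overlap a peak of each of 8 lists, for 4 classes of WT SMC1 peaks, with 95% Wilson intervals as error bars. Sites with neither CTCF nor H3K27ac (red) had H3K4me1 in 73.5% of cases, while sites with CTCF alone (blue) had it in 28.1%, and they kept an SMC1 peak in KO in 36.9% against 9.46%.

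H3K4me1 was more frequent at these sites than at sites with CTCF alone, and H3K27me3 was more frequent than at H3K27ac sites. The H3K4me1 share was 45.5 points higher than at sites with CTCF alone (44.5 to 46.4 points) and higher in 10 of 10 strength groups. It differed by -15.7 points from sites with H3K27ac alone (-16.6 to -14.8 points), and by a mean of -7.34 points over the strength groups. From sites with both CTCF and H3K27ac it differed by -4.46 points (-5.78 to -3.13 points), but it was higher in 7 of 10 strength groups. The H3K27me3 share was 6.05 points higher than the 0.457% at sites with H3K27ac alone (5.61 to 6.51 points). It lay within 1 point of the 7.47% at sites with CTCF alone. The rule itself split these sites from H3K27ac sites by H3K27ac, and its part in the H3K27me3 difference was not tested. At promoters, 504 of the 1571 sites (32.1%, 29.8 to 34.4%) had H3K4me3, compared with 4.32% of sites in introns and 3.60% of sites outside genes. H3K4me1 was called at between 68.2% and 78.6% of sites in each of the 4 kinds of location.

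The H3K4me1 list overlapped stronger sites more often. H3K4me1 was present at 60.4% of sites in the weakest strength group, 97.6% of the 125 sites in the ninth and 90% of the 20 sites in the tenth. In the other conditions, H3K4me1 was called in WTLPS at 72.7% of the sites, in KO at 69.9% and in KOLPS at 58.3%, against 58.0%, 56.4% and 46.2% of all WT SMC1 peaks. The KOLPS list has fewer and narrower H3K4me1 peaks than the others, and at 1 common lowest −log10 p the shares were 72.3% in WT, 69.4% in KO, 72.2% in WTLPS and 58.3% in KOLPS. H3K4me3 ranged between 5.48% in KOLPS and 7.88% in WT, and over all WT SMC1 peaks between 14.1% and 18.4% in the same conditions.

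Base composition divided the sites into 2 groups. GC content was below 30% at 2584 sites (21.1%, 20.3 to 21.8%), against 2.06% of sites with H3K27ac alone, 3.02% of sites with CTCF alone and 1.14% of sites with both. The 30% boundary was set after the distribution had been seen. The excess was not limited to WT, since peaks lacking CTCF and H3K27ac in their own condition were below 30% GC in 15.8% of cases in WTLPS, 22.3% in KO and 17.1% in KOLPS. Peaks with CTCF alone in their own condition were below 30% GC in 2.52%, 10.4% and 8.49% of cases, so the contrast with them was smaller in KO and KOLPS. The share at the sites was greatest in weak peaks, at 34.2% of sites in the weakest strength group, where 6.53% of sites with H3K27ac alone and 9.97% of sites with CTCF alone were below 30% GC, and it was 3.88% in the seventh.

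**Figure D2:**
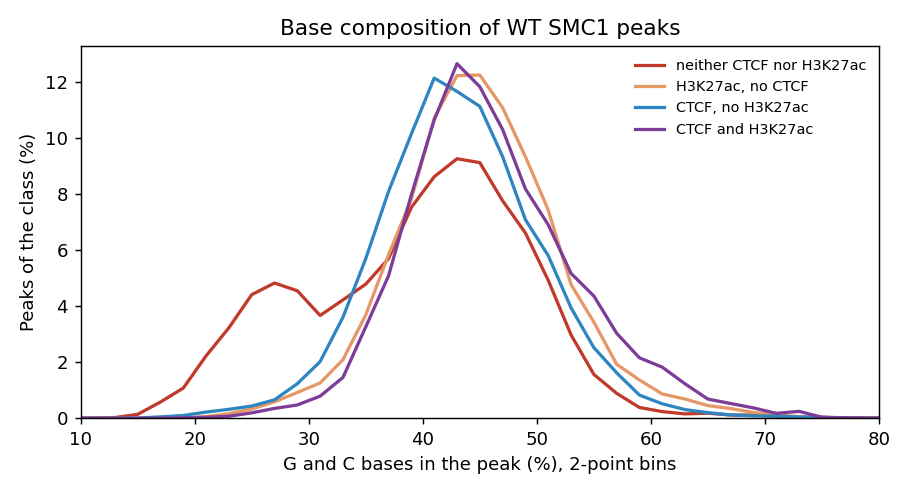
Distribution of GC content (percent of bases in the peak, 2-point bins) for the 4 classes of WT SMC1 peaks, as percent of each class. Sites with neither CTCF nor H3K27ac (red) show a second mode below 30% GC that holds 21.1% of them, against at most 3.02% of any other class.

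AT-rich sites had H3K4me1, STAT5 and p65 peaks less often than the others, but H3K27me3 peaks more often. A WT H3K4me1 peak lay at 33.6% of the sites below 30% GC and at 84.2% of the others. STAT5 peaks in WT lay at 0.735% and 8.82%, and p65 peaks in WTLPS at 0.232% and 6.27%. H3K27me3 went the other way, with WT peaks at 8.55% and 5.96%, and was also higher at AT-rich sites in WTLPS, KO and KOLPS. CTCF peaks in KO lay at 3.91% and 0.661%. Of the AT-rich sites, 38.5% were at least 50% repeat-masked, and 49.1% lay outside genes. SMC1 was called again in WTLPS at 23.1% of the AT-rich sites and 51.2% of the others, and in KO at 19.8% and 41.4%. An H3K27ac peak was called at 9.37% of the AT-rich sites in WTLPS but at 0.774% in KO and 0.735% in KOLPS. These 2 libraries also had the lowest H3K27ac background, 0.748 and 0.801 fragments per base, against 1.17 in WT and 1.20 in WTLPS. The part of base composition and coverage in these calls was not tested. No list other than WT SMC1 had a peak at 1381 sites, of which 917 were AT-rich. Short tandem repeats, in which at least 80% of the bases equal the base 1 to 6 positions further on, filled 88 summits (0.717%), against 0.129% at sites with H3K27ac alone.

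Motifs of myeloid factors were more frequent at the sites than at CTCF sites. Windows of 50 bp to either side of the summit were searched on both strands. The PU.1/ETS motif GAGGAAG, bound by the myeloid master factor PU.1 and its relatives, lay in 1378 windows (11.2%, 10.7 to 11.8%), against 3.29% of windows 1 kb away. It lay in 13.2% of windows at sites with H3K27ac alone, in 2.66% at sites with CTCF alone and in 7.39% over all WT SMC1 peaks. The AP-1 motif TGANTCA, bound by Fos and Jun dimers, was found at 7.37% of sites, 2.88% of windows 1 kb away and 5.45% of all WT SMC1 peaks. The C/EBP motif TTGCNNAA was found at 6.43% of sites, 4.38% of windows 1 kb away and 5.13% of all WT SMC1 peaks. A CTCF core motif of 12 letters was found at 0.489% of the sites (0.3801 to 0.629%) and 0.277% of windows 1 kb away. It was found at 13.9% of sites with CTCF alone and 7.31% of all WT SMC1 peaks. The sites were chosen for lacking a CTCF peak. An interferon response (IRF) motif of 10 letters was found at 2.09% of sites, 1.63% of windows 1 kb away and 1.61% of all WT SMC1 peaks.

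PU.1/ETS letters followed H3K4me1. They were present at 14.4% of sites with WT H3K4me1 (13.7 to 15.2%) and 2.37% of sites without (1.90 to 2.95%). By base composition the shares were 0.774% below 30% GC and 14.0% at or above it. A match to a motif shows only that these letters are in the window.

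STAT5 was found at a small group of sites, at which its motif was more frequent. A WT STAT5 peak overlapped 873 sites (7.11%, 6.67 to 7.58%), against 7.4% of all WT SMC1 peaks, and a KO STAT5 peak overlapped 712 sites (5.80%, 5.402 to 6.23%), against 5.67% of all. The share over the whole class was thus near that of all SMC1 peaks. It lay 6.18 points above sites with CTCF alone (5.72 to 6.66 points) and differed by -10.49 points from sites with H3K27ac alone (-11.2 to -9.75 points). By strength it ran from 2.97% in the weakest group to 41.6% in the ninth. The same 587 sites had STAT5 peaks in both WT and KO, which is 67.2% of those in WT, against 67.0% over all WT SMC1 peaks. The STAT motif TTCNNNGAA lay at 16.3% of sites with WT STAT5 (14.0 to 18.9%) and 2.25% of sites without (2.00 to 2.54%), against 3.25% of all the sites, 3.38% of windows 1 kb away and 2.97% of all WT SMC1 peaks. Over the class as a whole it was thus no more frequent than 1 kb away.

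Sites with STAT5 kept SMC1 more often. An SMC1 peak was called in KO at 67.8% of sites with WT STAT5 and 34.5% of sites without, a difference of 33.3 points (30.03 to 36.5 points). In WTLPS the shares were 79.6% and 42.7%. WTLPS p65 lay at 18.4% and 3.97%. STAT5 sites were also the stronger SMC1 peaks, and the part of strength in these differences was not tested.

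Concerning SMC1 in the 4 conditions, most sites were not called again in any given other list. A WTLPS SMC1 peak overlapped 5562 sites (45.3%, 44.4 to 46.2%), against 74.5% of all WT SMC1 peaks. A KO SMC1 peak overlapped 4524 sites (36.9%, 36.0 to 37.7%), against 34.5% of all. A KOLPS SMC1 peak overlapped 2258 sites (18.4%, 17.7 to 19.1%), against 21.1% of all. By pattern, 5277 sites (43.0%) had a peak in WT alone, 2015 (16.4%) in WT and WTLPS alone, 1066 (8.69%) in WT and KO alone, and 1617 (13.2%) in all 4 conditions. Median WT folds of these sets were 3.60, 3.904, 3.904 and 5.62. In the same order, these patterns made up 19.6%, 43.5%, 4.298% and 17.7% of all WT SMC1 peaks. The pattern of WT and KO alone was found at 8.66% of sites with H3K27ac alone and 0.378% of sites with CTCF alone.

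In KO, SMC1 was called at these sites more often than at sites of equal strength with CTCF alone. The KO share was 27.4 points higher than at sites with CTCF alone (26.5 to 28.3 points), where 9.46% were called again, and it was higher in 10 of 10 strength groups. It differed by -32.4 points from sites with H3K27ac alone (-33.5 to -31.3 points), and was lower in 10 of 10 strength groups with a mean difference of -13.2 points. At sites with both CTCF and H3K27ac, 50.5% had KO SMC1, a difference of -13.7 points (-15.2 to -12.1 points). Within strength groups the sites were higher than these in 9 of 10, with 7 intervals above 0. In WTLPS the order was different. There the difference was -40.05 points from sites with CTCF alone (-41.02 to -39.1 points) and -26.8 points from sites with H3K27ac alone (-27.9 to -25.7 points). The sites lay below each of the other classes in 10 of 10 strength groups. KO SMC1 rose with strength from 17.0% of sites in the weakest group to 53.6% in the fifth and 96.8% in the ninth.

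**Figure D3:**
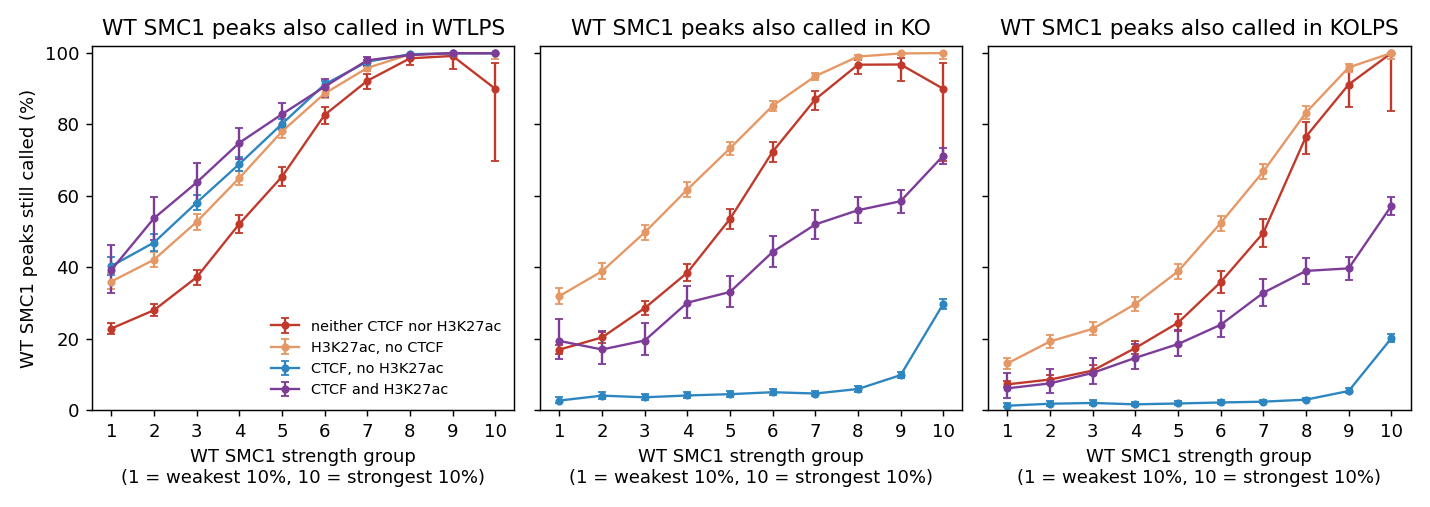
Percent of WT SMC1 peaks overlapped by an SMC1 peak in WTLPS, KO or KOLPS, by strength group of the WT peak (1 is the weakest 10%, 10 the strongest), with 95% Wilson intervals. In KO, sites with neither CTCF nor H3K27ac (red) climb from 17.0% to 96.8% in the ninth group, between H3K27ac sites (orange) and CTCF sites (blue). In the tenth group they number 20.

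Library coverage was similar in WT, WTLPS and KO and lower in KOLPS. The background recovered from the deposited fold and −log10 p values was 5.404 fragments per base in WT, 5.338 in KO, 5.765 in WTLPS and 4.495 in KOLPS. The part of coverage in the lower SMC1 counts was not tested.

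WT H3K4me1 at the sites went along with SMC1 retention. With WT H3K4me1, 53.4% of sites were called again in WTLPS and 44.6% in KO, compared with 23.0% and 15.5% without. The difference was 30.4 points in WTLPS (28.6 to 32.1 points) and 29.1 points in KO (27.5 to 30.7 points). Stronger SMC1 peaks had H3K4me1 more often, and the part of strength in these differences was not tested. With WT H3K27me3, 46.9% were called again in WTLPS and 37.0% in KO, compared with 45.2% and 36.9% without, and both intervals of the difference include 0 (-1.91 to 5.24 points and -3.29 to 3.63 points). Of sites called in WTLPS, 34.0% were also called in KOLPS, against 26.2% over all WT SMC1 peaks called in WTLPS.

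Gain of H3K27ac was the other question at these sites, since none of them had H3K27ac in WT. A WTLPS H3K27ac peak overlapped 2024 sites (16.5%, 15.8 to 17.2%), against 32.4% of all WT SMC1 peaks. However, KO cells without LPS had an H3K27ac peak at 1915 sites (15.6%, 15.0 to 16.3%), also against 32.4% of all. KOLPS cells had one at 1210 sites (9.86%, 9.34 to 10.4%), against 26.3% of all. Of all WT SMC1 peaks, 35.8% already had H3K27ac in WT, which the rule excluded here, so these lower shares do not show a smaller gain. Sites with CTCF alone also lacked WT H3K27ac, and 4.27% of them had a WTLPS peak, 3.58% a KO peak and 2.87% a KOLPS peak. The sites lay 12.2 points above them for WTLPS (11.5 to 12.9 points). For each of the 3 lists they were higher in 10 of 10 strength groups. In all 3 lists, 424 sites (3.46%) had H3K27ac, while 1038 sites (8.46%) had it in WTLPS alone and 916 (7.46%) in KO alone. The reverse count gives the scale of calls that differ between 2 lists. Of 11135 WTLPS SMC1 peaks without WTLPS CTCF or H3K27ac, 2559 (23.0%, 22.2 to 23.8%) had an H3K27ac peak in unstimulated WT. The WTLPS share of 16.5% thus lay below this reverse share and close to the KO share obtained without LPS. How close it lay to KO depended on the setting. With 50% of a site covered by 1 peak, the shares were 8.21% in WTLPS and 5.39% in KO. At sites with WT SMC1 −log10 p of at least 10 they were 19.9% and 23.3%.

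Sites near H3K27ac gained it most often. With a WT H3K27ac peak under 500 bp away, 34.3% of 2556 sites had WTLPS H3K27ac and 36.2% had KO H3K27ac. With the nearest one over 20 kb away, 4.86% of 3952 sites had WTLPS H3K27ac and 5.77% had KO H3K27ac. Sites with WT H3K4me1 had WTLPS H3K27ac in 20.4% of cases and those without in 5.61%, a difference of 14.8 points (13.6 to 15.9 points). Sites that kept SMC1 in WTLPS had it in 24.7% of cases and those that did not in 9.69%. Sites with WT H3K27me3 had it in 5.89% of cases, a difference of -11.3 points from those without (-12.9 to -9.37 points).

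The p65 subunit marked the sites at which WTLPS H3K27ac was most frequent. p65 enters the nucleus after TLR4 signalling and binds inducible enhancers. A p65 peak was called at 63 sites in WT and 613 in WTLPS (4.995%, 4.62 to 5.39%), against 6.07% of all WT SMC1 peaks, and at 38 in KO and 185 in KOLPS (1.51%, 1.31 to 1.74%), against 2.18% of all. Of the 613 sites with WTLPS p65, 601 (98.04%) kept an SMC1 peak in WTLPS, compared with 42.6% of the others. WTLPS H3K27ac lay at 321 of them (52.4%) and at 14.6% of the others, a difference of 37.8 points (33.7 to 41.7 points). The difference was 26.2 points for H3K27ac in KO (22.3 to 30.1 points) and 37.4 points in KOLPS (33.4 to 41.3 points).

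This association was present at each distance and strength. Sites with p65 had WTLPS H3K27ac in 68.0% of cases with WT H3K27ac under 500 bp away, and in 30.8% with none within 20 kb, compared with 31.5% and 3.79% of sites without p65. In the 3 weakest strength groups the shares were 55.7% with p65 and 13.2% without. The reverse counts showed smaller differences. Among the sites defined in WTLPS, H3K27ac in WT was found at 27.6% of those with WTLPS p65 and 22.7% of those without. The shares were 36.7% and 22.7% among sites defined in KO, and 42.04% and 35.9% among sites defined in KOLPS. The NF-κB motif, a 10-letter consensus, lay at 7.34% of sites with WTLPS p65 (5.53 to 9.68%) and 0.841% of sites without (0.690 to 1.02%), against 1.17% of all the sites and 1.54% of all WT SMC1 peaks. C/EBP letters lay at 12.9% and 6.09%.

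**Figure D4:**
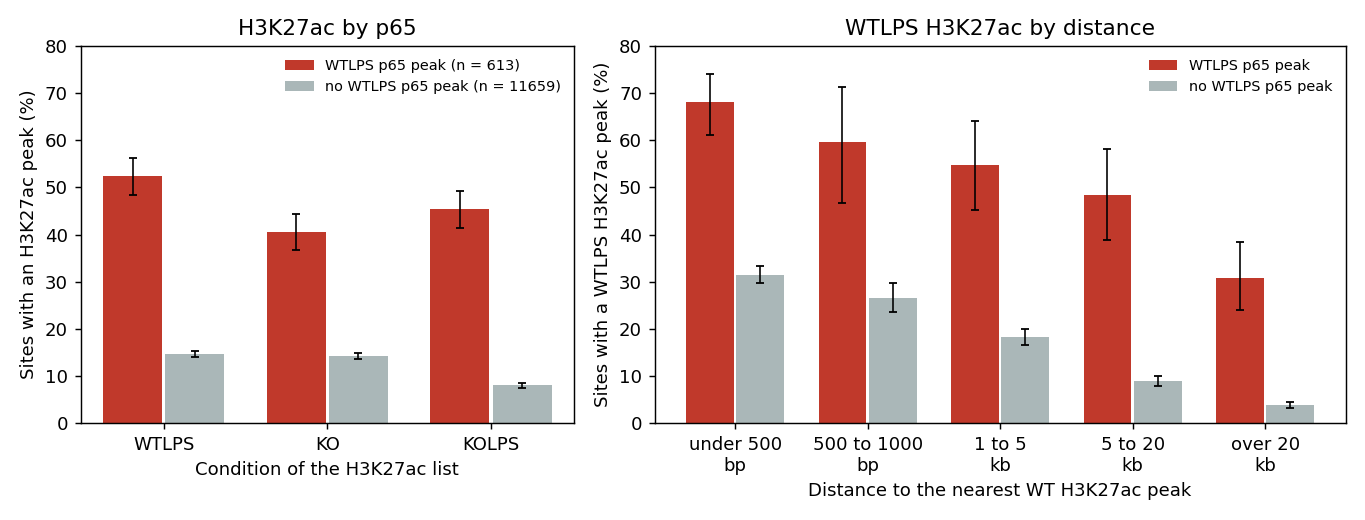
Percent of CTCF-free, H3K27ac-free sites with an H3K27ac peak, for sites with (red) and without (grey) a WTLPS p65 peak, by condition of the H3K27ac list (left) and, for WTLPS, by distance to the nearest WT H3K27ac peak (right), with 95% Wilson intervals. In WTLPS the shares were 52.4% and 14.6%, and sites with p65 lie above the others in each distance bin.

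H3K27me3 at the sites was lower in the 3 other lists. Peaks were called at 6.50% of sites in WT, against 3.68% in WTLPS, 3.89% in KO and 1.24% of sites for KOLPS. Over all WT SMC1 peaks the shares in the same order were 4.84%, 2.67%, 7.89% and 2.00%, so that the sites and all peaks were both lower with LPS and moved in opposite directions in KO. The number of H3K27me3 peaks called was 96475 for WT, 95080 for KO, 65880 for WTLPS and 26960 for KOLPS. At 1 common lowest −log10 p the shares were 4.56%, 3.59%, 2.67% and 1.24%. Of the 798 sites marked in WT, 316 (39.6%) were also marked in KO, against 62.6% over all WT SMC1 peaks marked in WT.

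Sites lay near most genes of the LPS response. A site lay within 100 kb of the start of 51.3% of 21938 protein-coding genes and at the promoter of 3.49%. Of genes with an H3K4me3 promoter in WT, 61.9% had one within 100 kb and 4.70% at the promoter. Among 29 LPS-induced cytokine and chemokine genes, 28 (96.6%) had a site within 100 kb and 5 (17.2%) at the promoter. The shares within 100 kb were 24 of 30 for TLR and NF-κB pathway genes, 16 of 20 for myeloid and dendritic transcription factors, 13 of 17 for GM-CSF and STAT5 pathway genes, 10 of 14 for antigen presentation genes, 12 of 23 for lymphoid genes and 17 of 42 for developmental transcription factors. Promoters were hit in 2 of 30, 3 of 20, 2 of 17, 1 of 14, 2 of 23 and 2 of 42 genes of these lists. Neighbouring genes such as those of chemokine clusters share sites, and the counts are descriptions without a test.

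The 5 LPS-induced genes with a site at the promoter were Ccl2, Cxcl9, Csf1, Il23a and Il10. Ccl2 encodes a chemokine that recruits monocytes. Its site (chromosome 11, 82035096 to 82035665) had its summit 166 bp before the start and a WT SMC1 fold of 8.43. It had SMC1 and H3K4me1 peaks in all 4 conditions and STAT5 peaks in WT and KO, with the STAT motif shown above, but no H3K27ac or p65 peak in any list. Cxcl9, an interferon-inducible chemokine gene, had a site 132 bp before its start (fold 5.47) with SMC1 and H3K4me1 in all 4 conditions, and p65 and H3K27ac in WTLPS. Il23a, which encodes a subunit of the cytokine IL-23, had a site 355 bp after its start (fold 3.59) with SMC1 in all 4 conditions, p65 in WTLPS, and H3K27ac in WTLPS and KOLPS. Csf1, the gene of the growth factor M-CSF, had a site 130 bp after its start (fold 4.37) with SMC1 and H3K4me3 in all 4 conditions and H3K27ac in WTLPS, KO and KOLPS. The Il10 site lay 2470 bp before the start of this gene of an anti-inflammatory cytokine, with SMC1 in WT, WTLPS and KO.

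Sites also lay at promoters of genes from the other lists. Myd88, the adaptor of most Toll-like receptors, had a site 1151 bp before its start (fold 4.68) without SMC1 in the other conditions, but with H3K27ac in WTLPS, KO and KOLPS and p65 in WTLPS. Ikbkb, which encodes an IκB kinase, had a site (fold 4.997) with SMC1 in all 4 conditions and H3K27ac in WTLPS and KOLPS. Fscn1, the gene of the actin bundler fascin, had a site (fold 3.37) with SMC1 in all 4 conditions, STAT5 in WT and KO, and p65 in WTLPS. At Lhx9, a developmental transcription factor gene, the site (fold 3.904) had H3K4me3 in all 4 conditions and H3K27me3 in WT, WTLPS and KO.

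Some genes had many sites. The highest number within 100 kb of a protein-coding start was 17, at Chil4, followed by 16 each at Dusp6, Sirpb1c and Zfp719, genes outside the chosen lists that were named after their values had been seen. Among the list genes, Ccl2 had 15 within 100 kb, of which 13 had SMC1 in WTLPS, 11 in KO, 3 H3K27ac in WTLPS and 2 p65. Nfkbiz, a regulator of secondary NF-κB responses, had 10, of which 10 had SMC1 in WTLPS, 6 with SMC1 in KO, 8 with WTLPS H3K27ac and 3 with p65. Il1b had 10, of which 9 had SMC1 in WTLPS and 9 in KO, 8 WTLPS H3K27ac and 4 p65. Nfkbiz and Il1b were chosen after their values had been seen.

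Individual sites were named by a fixed rule, as the 5 strongest in each of 6 sets and without the 852 sites that had peaks in more than 10 of the 30 lists. Where a named site is said to be near a gene, that gene has the closest protein-coding start, at any distance. The strongest was a repeat in Pcca, shown above, with a WT SMC1 fold of 60.6 and 66.6 in KOLPS, no SMC1 peak in WTLPS or KO, and H3K27ac folds of 17.9 in KO and 37.1 in KOLPS. The next 4 lay near Stoml1, near Ccnd2, in Rere and near Cdkn2aipnl, and each had SMC1 peaks in all 4 conditions. At the site near Stoml1 (chromosome 9, 58271070 to 58271806) SMC1 folds in WT, WTLPS, KO and KOLPS were 19.8, 17.9, 15.9 and 15.7, with STAT5 folds of 19.8 in WT and 16.6 in KO. At the site 115093 bp from Ccnd2, the gene of cyclin D2, SMC1 folds were 17.3, 18.9, 18.9 and 17.5 in the same order, and STAT5 folds were 17.6 and 7.77. In Rere they were 17.2, 9.61, 10.9 and 10.9, with the WT value the highest. Folds depend on the background of each library, so they are given side by side without a test. Fndc3b completed the 5 strongest sites with SMC1 in all 4 conditions, with folds of 13.6, 11.4, 7.26 and 5.82.

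Sites with both p65 and H3K27ac in WTLPS numbered 93 after this exclusion. The strongest lay in Gm19705, near Qpct, near Zeb2, in Clmp and near Pim1, and all 5 had SMC1 in WTLPS and H3K4me1 in all 4 conditions. The site near Zeb2 lay 537414 bp from the start of this gene of a myeloid transcription factor and had a WTLPS H3K27ac fold of 5.46 and p65 fold of 7.01. The site 19974 bp from Pim1, a kinase gene induced by cytokines, had a WTLPS H3K27ac fold of 7.74, a p65 fold of 4.85 and a WT STAT5 fold of 6.87. Among sites with STAT5 in WT and KO, those after Stoml1 and Ccnd2 lay in Ret, Iqgap2 and Nbea. The Iqgap2 site had the highest STAT5 folds of the 5, 33.5 in WT and 26.3 in KO, and SMC1 folds of 12.02, 7.39, 9.31 and 5.10 in WT, WTLPS, KO and KOLPS.

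With WT H3K27me3, the 5 strongest had P4ha2, Cyp26a1, Prlhr, Tnfsf18 and Pard3 as the nearest protein-coding starts. In this order the starts lay 60083, 106115, 57770, 65910 and 645605 bp from the summits. The sites near Cyp26a1 and Prlhr were 100% repeat-masked, lay far from H3K27ac (150596 and 143171 bp), and had no H3K4me1. The sites near P4ha2, Tnfsf18 and Pard3 had H3K4me1 and SMC1 in all 4 conditions and WT H3K27me3 folds of 4.23, 3.87 and 3.98. Sites with no peak outside the SMC1 lists numbered 1835. The strongest 4 lay in Adgrl3 and Gm21188, and 232737 bp from the start of 4931408C20Rik and 118065 bp from that of Adam10. Their WT SMC1 folds ran from 6.71 to 8.43. Of these 4, 3 were called again in WTLPS, 1 in KO and 1 in KOLPS, and none in all 4 conditions.

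**Figure D5:**
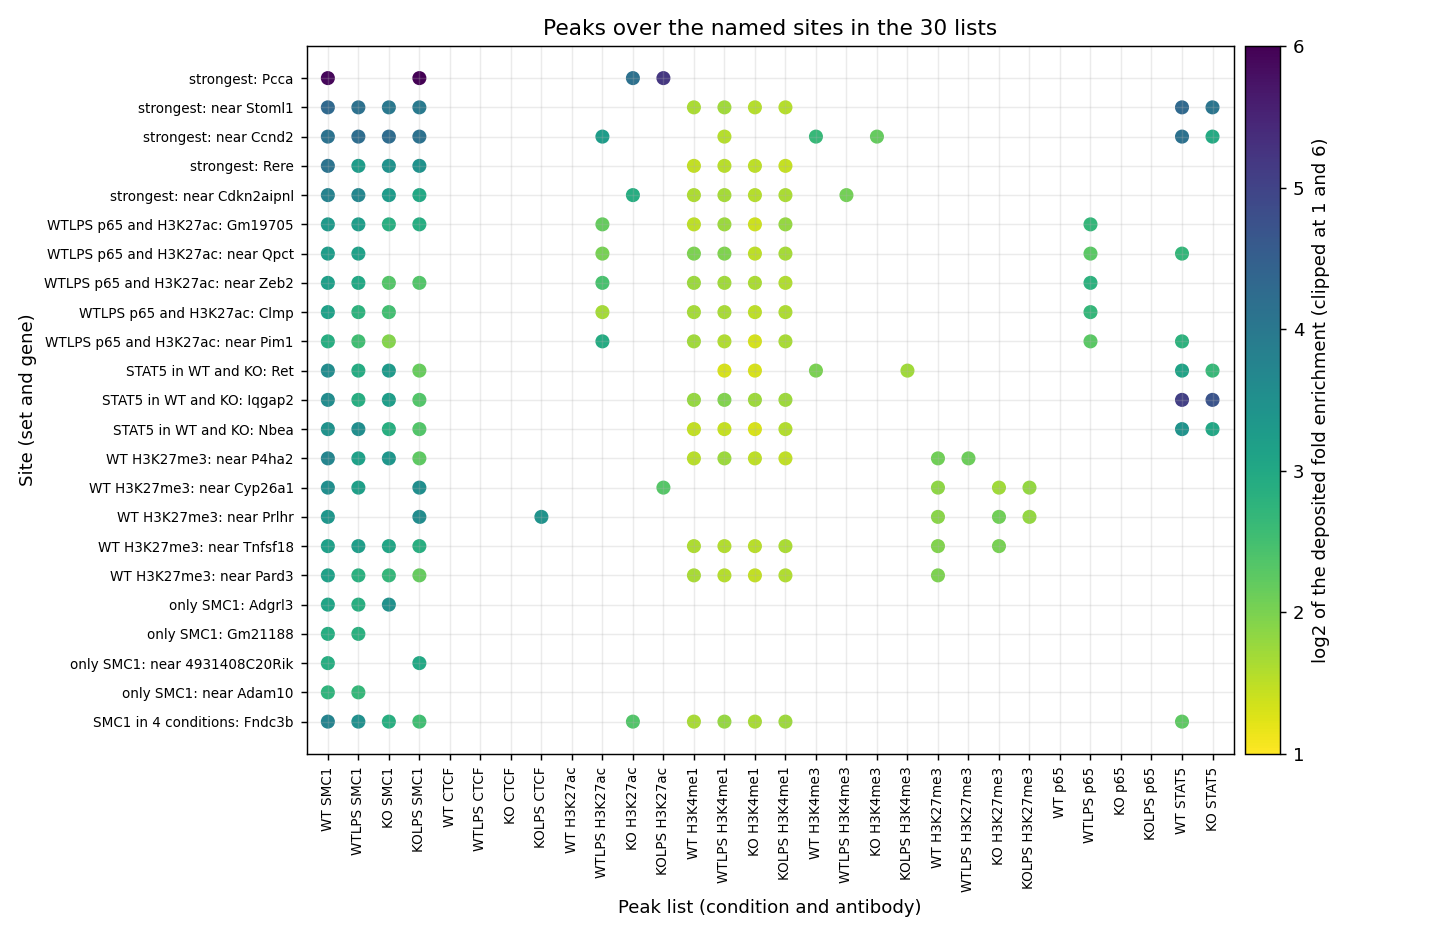
Peaks over 23 named sites (rows, with the set that named them and the gene at the summit or nearest to it) in the 30 lists (columns), coloured by log2 of the deposited fold. SMC1 in 4 conditions goes with H3K4me1 at most sites, while sites named for SMC1 alone have 1 or 2 SMC1 peaks beside the WT one.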

How the data were processed

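ChIP-seq of 34 samples (30 antibody libraries and 4 inputs) was used as the peak lists of the 30 libraries. Input libraries were not analysed here. According to the submitters' processing notes, tools named for the files include BWA 0.7.12, Picard 1.77, MACS2 2.1.2 and deepTools 3.1.3, and coordinates are mm10. The deposited lists give per peak a fold ratio over local background and −log10 p and −log10 q as the authors' peak caller wrote them. There was 1 list per antibody and condition. The study's methods state that ChIP-seq was done in biological replicates, and its reporting summary says, for the experiments in general, that these were combined once they had been found reproducible, so that the spread between cultures cannot be read from the lists.

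WT SMC1 peaks were classed by an overlap of at least 1 bp with WT CTCF and WT H3K27ac peaks. Shares were computed in Python 3.11.15 with numpy 2.4.6, pandas 2.3.3 and scipy 1.17.1, and scripts were tested on simulated data. Reads without molecular identifiers are not independent molecules, so intervals cover counting error only. Genes were taken from GENCODE, and sequence from RefSeq GRCm38.p6. Named sites were the 5 strongest by WT SMC1 −log10 p in each of 6 sets (all, WTLPS p65 with H3K27ac, STAT5 in WT and KO, WT H3K27me3, SMC1 alone, SMC1 in all 4 conditions), leaving out sites with peaks in more than 10 lists, and genes were named where a site lay at the promoter. A few such items are not reported here. The sites, gene lists and motifs were chosen with earlier results of these data known. Alternatives changed the overlap, the peak thresholds, the distance to CTCF and H3K27ac, the promoter and the set of sites.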

Additional observations from a re-analysis of the deposited data

Results flagged for a closer look

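H3K27me3 moved in opposite directions in 2 classes of cohesin sites between WT and KO. At the 12272 sites without CTCF and H3K27ac the share with an H3K27me3 peak fell from 6.50% to 3.89%, a change of -2.62 percentage points (-3.02 to -2.21 points). At the 28573 sites with CTCF alone it rose from 7.47% to 15.2%, a change of 7.70 points (7.31 to 8.08 points). At 1 common lowest −log10 p the changes were -1.88 and 5.31 points. Between WTLPS and KOLPS, also at a common threshold, both were negative, at -2.35 and -0.252 points. With 1 list per condition the difference between the classes was not tested.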

How the results depend on the processing

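Each result below is the share of the CTCF-free, H3K27ac-free sites with a peak of the named list. With 50% of a site covered by 1 peak the shares were 71.4% WT H3K4me1, 5.88% WT H3K4me3, 4.86% WT H3K27me3, 5.48% WT STAT5, 3.62% WTLPS p65, 8.21% WTLPS H3K27ac, 5.39% KO H3K27ac, 2.82% KOLPS H3K27ac, 42.8% WTLPS SMC1, 32.7% KO SMC1, 14.8% KOLPS SMC1. With the upper 50% of each list by −log10 p they were 63.6% WT H3K4me1, 4.49% WT H3K4me3, 4.59% WT H3K27me3, 4.04% WT STAT5, 2.82% WTLPS p65, 9.79% WTLPS H3K27ac, 9.49% KO H3K27ac, 6.18% KOLPS H3K27ac, 15.0% WTLPS SMC1, 20.6% KO SMC1, 8.81% KOLPS SMC1. At the 8270 sites with no WT CTCF or H3K27ac peak within 1 kb they were 65.9% WT H3K4me1, 4.98% WT H3K4me3, 8.42% WT H3K27me3, 6.35% WT STAT5, 4.03% WTLPS p65, 9.99% WTLPS H3K27ac, 8.57% KO H3K27ac, 5.73% KOLPS H3K27ac, 41.4% WTLPS SMC1, 32.7% KO SMC1, 16.4% KOLPS SMC1, and 10.6% at promoters. At the 4974 sites with WT SMC1 −log10 p of at least 10 they were 86.8% WT H3K4me1, 8.95% WT H3K4me3, 5.91% WT H3K27me3, 12.1% WT STAT5, 9.19% WTLPS p65, 19.9% WTLPS H3K27ac, 23.3% KO H3K27ac, 14.9% KOLPS H3K27ac, 70.2% WTLPS SMC1, 59.95% KO SMC1, 32.7% KOLPS SMC1. At the 11420 sites with peaks in at most 10 lists they were 71.8% WT H3K4me1, 5.51% WT H3K4me3, 6.07% WT H3K27me3, 4.79% WT STAT5, 2.41% WTLPS p65, 13.4% WTLPS H3K27ac, 12.5% KO H3K27ac, 6.61% KOLPS H3K27ac, 41.9% WTLPS SMC1, 33.2% KO SMC1, 14.3% KOLPS SMC1, and 11.8% at promoters. Promoters of 1 kb held 6.21% of sites, and those of all transcripts 18.9%. Averaged over 10 strength groups the shares were 21.1% WTLPS H3K27ac, 27.4% KO H3K27ac, 18.0% KOLPS H3K27ac, 66.8% WTLPS SMC1, 60.1% KO SMC1, 42.2% KOLPS SMC1. At a common lowest −log10 p they were 72.3% WT H3K4me1, 4.56% WT H3K27me3. At the 11135 sites defined in WTLPS, with each list replaced by its counterpart, they were 74.4% WTLPS H3K4me1, 7.28% WTLPS H3K4me3, 3.92% WTLPS H3K27me3, 8.05% WT STAT5, 60.9% WT SMC1, 21.7% KOLPS SMC1 and 42.3% KO SMC1. In an alternative chosen after seeing the data, without sites at least 50% repeat-masked, they were 79.1% WT H3K4me1, 17.9% WTLPS H3K27ac, 17.9% KO H3K27ac, 11.3% KOLPS H3K27ac, 48.4% WTLPS SMC1, 40.4% KO SMC1, 20.2% KOLPS SMC1. Leaving out chromosomes X and Y moved no share beyond its interval. Of all 99 alternative values, 82 were counted as moved and 17 as not, where a share moved if it left its interval. Why they moved was not tested. The number of sites, 12272, has no interval and was 8270, 4974, 11420 or 12143 in the alternatives that change it. These numbers are among the 99 values, with 4974 counted as moved and 8270, 11420 and 12143 as not moved. Cultures could not be paired, because each antibody and condition has 1 list. Paired intervals of changes between lists were taken over the same sites and cover counting error only.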
